A study of Mus musculus with 158 samples.

Results

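Open chromatin was measured around 9 genes that encode nuclear receptors of metabolism, in 4 adult cell and tissue types of F1 hybrid mice. The genes were Ppara, Nr1h3, Nr1h4, Nr1i2, Nr1i3, Nr0b2, Nr5a2, Rxra and Esr1, which are 9 of the 21755 protein-coding genes annotated on the autosomes and chromosome X. Each locus was taken as the annotated gene body in mm10 with 20 kb on both sides. The 9 windows held 3967 of the 3925513 DHS hotspots that the 20 adult sets hold in all. A DHS hotspot is a stretch of the genome where DNase I, an enzyme that cuts accessible DNA, released more fragments than the background allows.

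Nuclear receptors are transcription factors whose activity is set by small lipid-soluble molecules such as fatty acids, oxysterols, bile acids, drugs and steroid hormones. Most of those studied here bind DNA in pairs with the retinoid X receptor, on elements built from the letters AGGTCA, while some bind alone or, lacking a DNA-binding domain, act by binding other receptors. In liver they control fatty acid oxidation, cholesterol and bile acid synthesis and the removal of foreign compounds.

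The mice were F1 hybrids of C57BL/6J dams with sires of 5 inbred strains. The hybrids are called B6x129, after the strain of its sire, B6xC3H (sire C3H/HeJ), B6xCAST (sire CAST/EiJ), B6xPWK (sire PWK/PhJ) and B6xSPRET (sire SPRET/EiJ). The labels name no engineered allele and no treatment for any group. Nuclei came from whole liver, both kidneys, the whole lung, and marrow B cells of mice aged 8 weeks. The B cells were taken from the femurs of females, by depletion of cells bearing CD43 or Mac-1/CD11b. A total of 138 DNase-seq libraries were pooled by the authors into 1 hotspot set per hybrid and tissue, which leaves 20 sets and makes the 5 hybrids the repeats of each tissue. Mouse embryonic stem cells (mESCs) of the B6xCAST cross gave 1 DNase-seq set and 1 ChIP-seq set for CTCF, the factor that marks insulators and loop anchors.

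The sets differed in size. Liver sets held 211762 to 295565 hotspots covering 78.4 to 128.8 Mb, kidney sets 186061 to 238917 hotspots covering 63.6 to 85.2 Mb, lung sets 152006 to 281978 covering 43.8 to 97.0 Mb, and B cell sets 78387 to 156078 covering 29.0 to 68.7 Mb. The hotspot sets carry no read counts, and the read depth of the sets was not used here. As a check of the labels, 8 of 8 markers of liver, kidney, lung and B cells had a hotspot at a start in every set of their own tissue. Some, such as Ass1, Hopx, Foxj1, Ebf1, Vpreb1 and Cd22, were open in all 20 sets and tell no tissues apart, while Tat and Cps1 were open in liver alone, Slc34a1 and Aqp2 in kidney alone, and Sftpc and Sftpb in lung alone. No B cell marker was open in B cells alone. Markers of other cells were present too: 4 to 8 of the 8 B cell markers were open in lung, 3 to 7 in liver and 3 to 5 in kidney, and 4 to 5 of the 5 macrophage markers were open in liver. Of the 5 endothelial markers 3 to 5 were open in every adult set. The part of these cells in the values of the members was not tested. In such bulk samples, fewer cells of a type and less signal per cell cannot be told apart.

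Start regions were examined first. The 9 genes have 47 distinct annotated starts, and a start was called open where a hotspot lay within 100 bp of it. In all 5 liver sets 39 of the 47 starts (83.0%) were open, against 47.3% of the 93196 starts of all protein-coding genes. The count was 27 (57.4%) in all 5 kidney sets, where 49.6% of all starts were open, and 20 (42.6%) in all 5 lung sets, where 47.3% were. B cells came last, with 12 starts (25.5%) open in all 5 sets, beside 40.9% of all starts. Starts open in all 20 sets numbered 11 (23.4%; 37.4% of all starts), and 4 starts were open in none (8.51%; 32.9%). Many starts of a gene share 1 hotspot and are not independent.

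**Figure D1:**
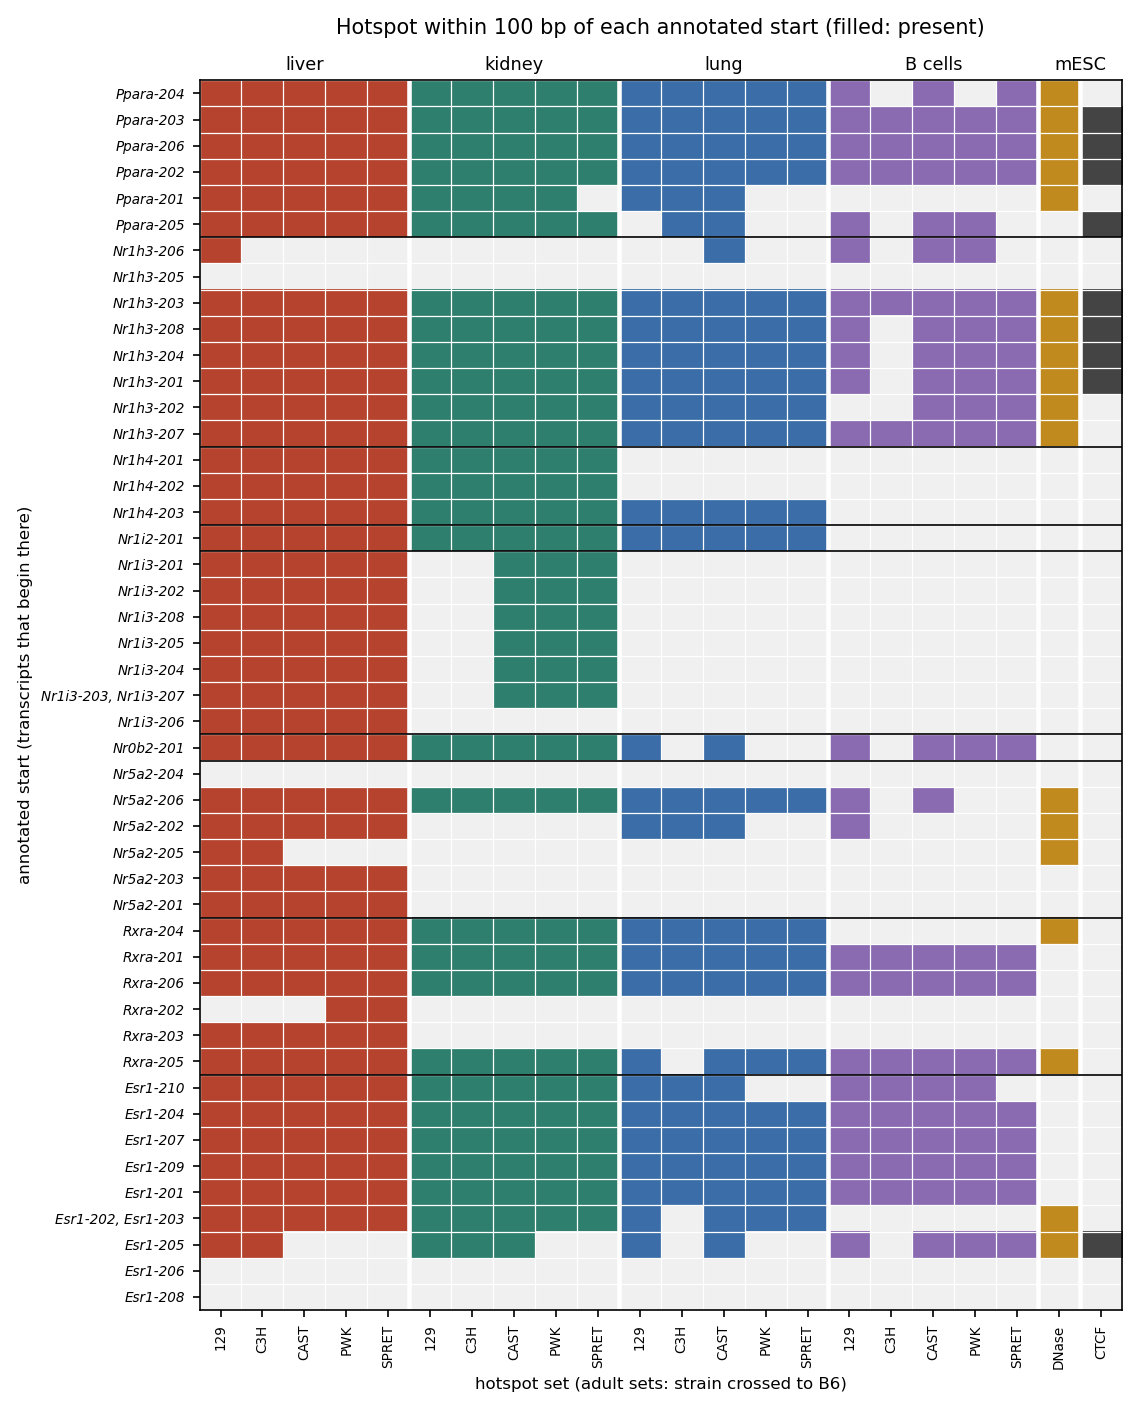
Presence of a DHS hotspot within 100 bp of each of the 47 annotated starts of the 9 genes (rows) in the 20 adult sets, ordered by tissue and hybrid, and in the mESC DNase-seq and CTCF ChIP-seq sets (columns). Filled cells mark open starts: the liver columns are filled for 39 starts in all 5 hybrids and the B cell columns for 12.

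Single genes differed in which tissues opened their starts. Starts open in all 5 liver sets and in no other set numbered 4, namely Nr5a2-201, Nr5a2-203, Nr1i3-206 and Rxra-203, which is 8.51% of the starts against 0.829% of all starts. This class rests on the distance of 100 bp: with 500 bp it held 0 starts, and the merged sites over or beside these starts also held 1 kidney and 1 lung set at Nr5a2, 4 kidney sets at Nr1i3, and 5 kidney and 4 lung sets at Rxra. Starts open in all 5 liver sets but in no lung and no B cell set numbered 12 (25.5%; 1.75% of all starts). The Nr1h4-201 and Nr1h4-202 starts were open in all 10 liver and kidney sets and in no other (4.26%; 0.645%). Nr1h4-203, Nr1i2-201 and Rxra-204 were open in all 15 solid organ sets and in no B cell set (6.38%; 1.74%).

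Sequences just upstream of these starts are shown because the starts differ in base composition as well as in the tissues where they are open. Each is the 250 bases before a RefSeq start (GRCm38.p6, the assembly of mm10), read 5′ to 3′ on the strand of the gene. Capitals mark matches on either strand to 1 of 11 motifs: AGGTCA, its direct repeats with 1 or 4 bases between copies, its inverted repeat with 1 base between copies, TCAAGGTCA, an HNF4 type (CAAAGTCCA), an HNF1 type, a forkhead type (TGTTTAC), a CEBP type (TTGCGCAA), the GC box (GGGCGG) and the TATA box (TATAAA). TCAAGGTCA holds AGGTCA, so its matches count for both. Nr5a2, Nr1i3, Nr1h4 and Nr1i2 stand for starts open in some tissues only. Nr0b2 stands for a start open in every liver and kidney set but not in every lung or B cell set. Rxra stands for a start open in every adult set, though not in mESCs.
Nr5a2, chr1:136960449-136960698, minus strand: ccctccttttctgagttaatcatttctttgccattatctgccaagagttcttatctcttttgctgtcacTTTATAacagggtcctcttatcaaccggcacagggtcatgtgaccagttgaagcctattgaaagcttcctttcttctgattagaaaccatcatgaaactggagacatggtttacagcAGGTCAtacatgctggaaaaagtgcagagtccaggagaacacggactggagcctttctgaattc
Nr1i3, chr1:171213720-171213969, plus strand: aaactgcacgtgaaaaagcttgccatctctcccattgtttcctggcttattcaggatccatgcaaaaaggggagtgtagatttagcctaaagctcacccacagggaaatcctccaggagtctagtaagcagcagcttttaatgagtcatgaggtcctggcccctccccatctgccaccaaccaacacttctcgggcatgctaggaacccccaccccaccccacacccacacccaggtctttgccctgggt
Nr1h4, chr10:89506659-89506908, minus strand: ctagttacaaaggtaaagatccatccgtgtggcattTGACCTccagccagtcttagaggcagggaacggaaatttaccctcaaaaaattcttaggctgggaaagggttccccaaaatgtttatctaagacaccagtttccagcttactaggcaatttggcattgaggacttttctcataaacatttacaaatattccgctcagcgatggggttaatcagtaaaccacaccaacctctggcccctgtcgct
Nr1i2, chr16:38294825-38295074, minus strand: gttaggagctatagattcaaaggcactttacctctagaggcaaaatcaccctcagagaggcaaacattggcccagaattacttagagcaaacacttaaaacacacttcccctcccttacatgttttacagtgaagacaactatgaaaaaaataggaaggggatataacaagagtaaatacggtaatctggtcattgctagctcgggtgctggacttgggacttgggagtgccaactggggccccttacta
Nr0b2, chr4:133553126-133553375, plus strand: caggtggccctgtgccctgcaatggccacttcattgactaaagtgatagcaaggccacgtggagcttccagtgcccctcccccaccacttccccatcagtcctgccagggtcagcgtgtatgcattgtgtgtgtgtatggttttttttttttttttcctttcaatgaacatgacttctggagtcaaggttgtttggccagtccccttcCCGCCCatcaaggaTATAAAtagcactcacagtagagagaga
Rxra, chr2:27676951-27677200, plus strand: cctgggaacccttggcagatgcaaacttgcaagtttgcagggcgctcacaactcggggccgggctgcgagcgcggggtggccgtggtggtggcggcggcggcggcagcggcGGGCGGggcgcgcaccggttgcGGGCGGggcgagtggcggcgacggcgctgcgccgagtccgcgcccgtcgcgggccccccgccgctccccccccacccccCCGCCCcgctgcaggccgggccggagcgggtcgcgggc

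None of these 6 stretches overlaps an annotated exon, and the Nr1h4 stretch lies in an intron of the longer transcript Nr1h4-203. The Rxra stretch was 81.2% G and C with 40 CpG dinucleotides. The other 5 were far poorer in G and C, from 43.2% for Nr5a2 to 53.2% for Nr1i3, with 2 to 5 CpG dinucleotides each. The median over all RefSeq promoters was 52.4%. Ppara, another start open in all 20 sets, had 76.4%, but Esr1, whose start was also open in all 20, had 47.6%, so base composition and openness did not go together at every gene.

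Motif matches were few. Counting the base just before the start as -1, Nr5a2 held an AGGTCA element at -64 and a TATA box at -181 on the opposite strand, Nr1h4 held AGGTCA at -214 on the opposite strand, and Nr0b2 a TATA box at -28 and a GC box at -42. Rxra held GC boxes at -139, -117 and -38. None of the 11 motifs lay in the Nr1i2 or Nr1i3 stretch. Over all RefSeq promoters of 300 bases, 250 before the start and 50 after, 16.3% held AGGTCA, 35.7% a GC box and 13.6% a TATA box. A match of letters shows neither binding nor its absence.

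Coverage of the whole locus was then compared between tissues. The measure was the number of bp covered by hotspots in the window, tested as log2(bp + 200) with limma over all 21194 genes with a hotspot in at least 5 of the 20 sets, with hybrid in the model and Benjamini-Hochberg adjustment over all of them. Liver held the highest mean coverage at 9 of the 9 loci. Kidney came second at 7 loci and lung at Nr1h3 and Nr1i3. B cells held the lowest mean at 6 loci, lung at Nr0b2 and Esr1, and kidney at Nr1i3. Genome-wide, the smallest set of each tissue fell from 78.4 Mb covered in liver through 63.6 in kidney and 43.8 in lung to 29.0 in B cells. The share of all genes with each order of tissues was not computed.

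**Figure D2:**
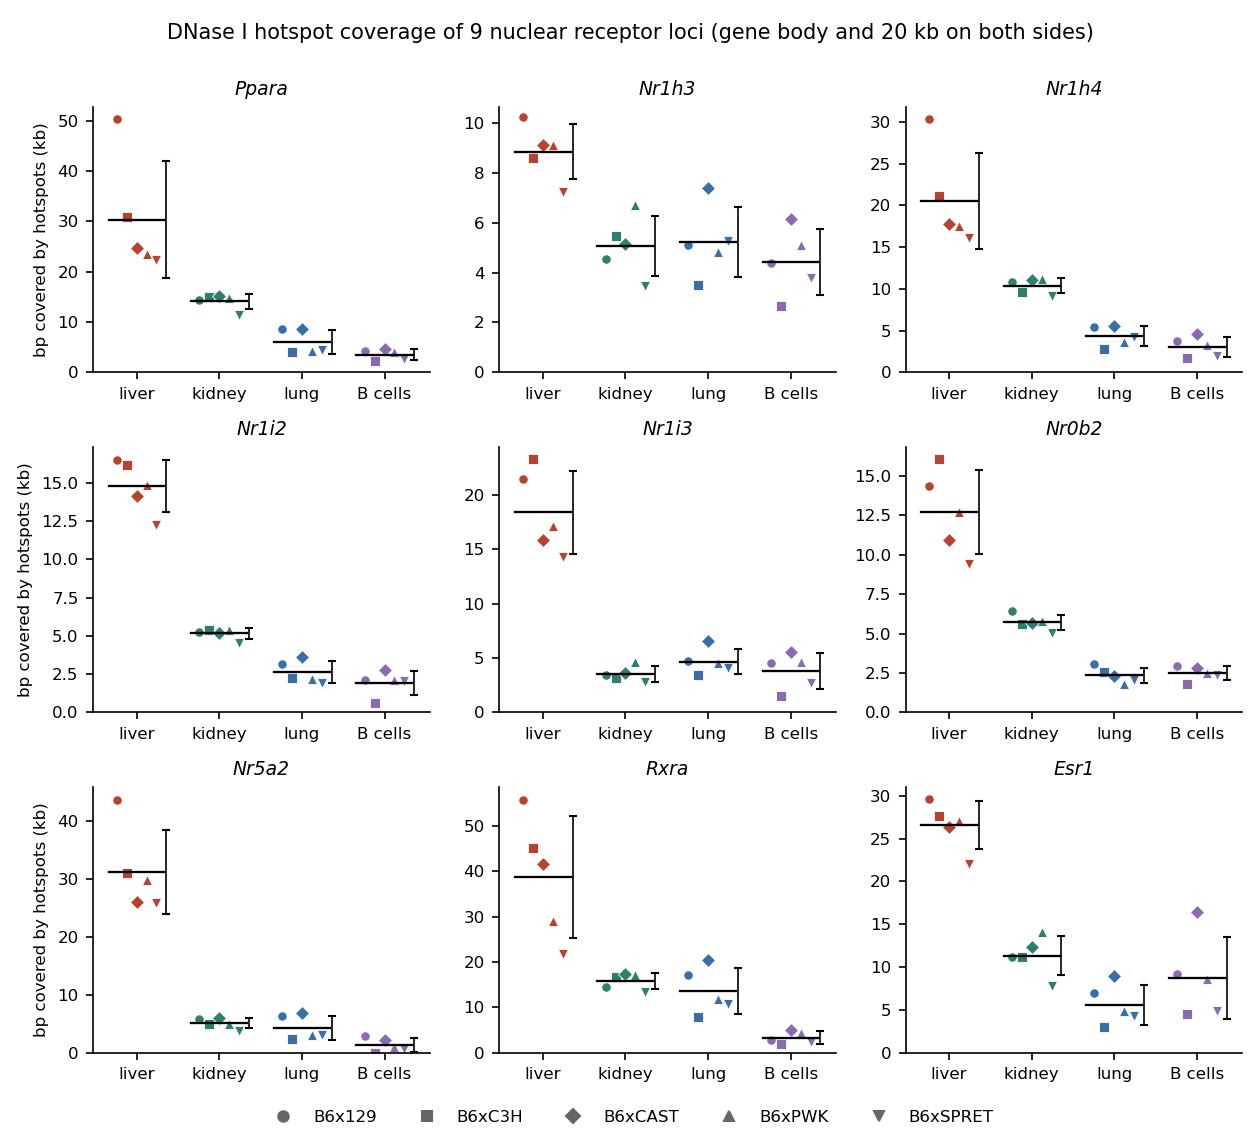
bp covered by DHS hotspots in the gene body with 20 kb on both sides, per gene and tissue. Each point is 1 hybrid, the line is the mean and the bar the SD of the 5 hybrids: the liver points lie above every other point at 8 of the 9 loci, the exception being Nr1h3.

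The fatty acid and oxysterol sensors came first. Ppara (ENSMUSG00000022383, chr15:85734983-85802819, plus strand) encodes the receptor that turns on fatty acid oxidation in fasting. In liver its window was covered over 50234 bp for B6x129, 30861 for B6xC3H, 24676 for B6xCAST, 23586 for B6xPWK and 22292 for B6xSPRET. In the same order of hybrids, kidney coverage was 14372, 14874, 15073, 14670 and 11433 bp. Lung coverage was 8601, 3954, 8672, 4157 and 4505 bp, and that of B cells 4187, 2175, 4718, 3957 and 2599 bp. The liver, kidney and lung ranges did not overlap, and the B cell range ran into that of lung. The liver mean was 30330 ± 11603 bp, the kidney mean 14084 ± 1505, the lung mean 5978 ± 2435 and the B cell mean 3527 ± 1087 (SD, n = 5 hybrids each). The difference of liver from kidney and lung was 1.68 ± 0.18 on the log2 scale (SE, limma adjusted p = 4.58e-08), and kidney exceeded lung by 1.29 ± 0.20 (adjusted p = 4.24e-05). Ppara-202 was open in all 20 sets, in a hotspot of 1728 to 6370 bp in liver and 515 to 937 bp in B cells. Ppara-201, which starts 355 bp further on, was open in 5 liver, 4 kidney, 3 lung and 0 B cell sets. Starts of Cdpf1 and Pkdrej also lie in the Ppara window.

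Nr1h3 (ENSMUSG00000002108, chr2:91184061-91202834, minus strand) encodes liver X receptor alpha, a sensor of oxysterols that controls cholesterol export and lipid synthesis. It was the most even of the 9 loci. Coverage was 10241, 8569, 9117, 9094 and 7215 bp in the liver sets of B6x129, B6xC3H, B6xCAST, B6xPWK and B6xSPRET, and 4530, 5467, 5132, 6716 and 3472 bp in kidney. Lung gave 5089, 3508, 7385, 4825 and 5255 bp, so the B6xCAST lung set lay above the B6xSPRET liver set. B cells gave 4399, 2658, 6124, 5115 and 3775 bp. Liver was 0.79 ± 0.16 higher than kidney and lung (log2, SE, limma adjusted p = 0.000269). Kidney and lung differed by -0.03 ± 0.18 (adjusted p = 0.922), well within the spread of the hybrids. Of its 8 starts, Nr1h3-203 and Nr1h3-207 were open in all 20 sets and 4 more in all 15 solid organ sets. The starts of Acp2 and Madd also lie in this window. Those of Acp2 (91202885 to 91202928) lie under the same merged site as Nr1h3-207 (91202834). The data do not say to which gene that site belongs.

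The bile acid genes showed stronger contrasts. Nr1h4 (ENSMUSG00000047638, chr10:89454234-89533585, minus strand) encodes the farnesoid X receptor, which is activated by bile acids and restrains their synthesis. Its liver coverage was 30302, 21058, 17755, 17541 and 16067 bp in the same order of hybrids. Kidney followed with 10792, 9656, 11035, 11181 and 9173 bp, ahead of lung with 5467, 2740, 5498, 3618 and 4217 bp. The B cell sets, with 3765, 1661, 4586, 3221 and 1939 bp, overlapped lung only. Starts of Gas2l3 also lie in this window. In the gene body alone, the B cell sets (399 to 1095 bp) lay below the lung sets (1470 to 2954 bp). Liver exceeded kidney and lung by 1.57 ± 0.17 (log2, SE, limma adjusted p = 5.43e-08), and kidney exceeded lung by 1.27 ± 0.19 (adjusted p = 2.7e-05). The starts of this gene separated the tissues further. The hotspot over Nr1h4-201 and Nr1h4-202 was 1101 to 3355 bp wide in liver and 640 to 946 bp in kidney, and no lung or B cell set had one. The upstream start, Nr1h4-203, had hotspots of 1631 to 2507 bp in liver, 1010 to 1267 bp in kidney and only 195 to 275 bp in lung.

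Nr0b2 (ENSMUSG00000037583, chr4:133553376-133556536, plus strand) encodes the small heterodimer partner, a receptor without a DNA-binding domain that represses bile acid synthesis. Liver coverage was 14346, 16095, 10960, 12707 and 9406 bp, and kidney coverage 6415, 5582, 5665, 5819 and 5069 bp. In lung the values were 3044, 2538, 2321, 1776 and 2059 bp, beside 2922, 1823, 2831, 2480 and 2385 bp for B cells. Liver and kidney stood apart from each other and from the rest, while lung and B cells overlapped. Liver was 1.72 ± 0.15 above kidney and lung (log2, SE, limma adjusted p = 1.51e-09), and kidney 1.23 ± 0.17 above lung (adjusted p = 6.81e-06). Its only start carried hotspots of 1119 to 3121 bp in liver and 409 to 899 bp in kidney. In B cells 4 of 5 sets had one, of 197 to 246 bp, and in lung 2 of 5, of 167 and 199 bp. The window also holds the starts of Gpatch3 and Nudc. Without hotspots at the starts of other genes, the contrast of kidney with lung rose to 2.82 and that of B cells with the solid organs went from -1.11 to -2.95.

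Nr5a2 (ENSMUSG00000026398, chr1:136842571-136960448, minus strand) encodes the liver receptor homolog, which binds DNA as a monomer and drives bile acid genes. It had the widest tissue contrast of the 9. Its window was covered over 43667, 31006, 26117, 29784 and 25875 bp in liver, by 74, 59, 64, 68 and 53 hotspots. Kidney coverage was 5823, 4943, 5912, 4964 and 3675 bp and lung coverage 6377, 2349, 6753, 3017 and 3084 bp, and these overlapped. B cells gave 2875, 0, 2101, 912 and 612 bp, from 12, 0, 10, 6 and 4 hotspots, and the B6xC3H set held none. Mean liver coverage of 31290 ± 7274 bp was 6.18 times the kidney mean, 7.25 times the lung mean and 24.1 times the B cell mean. Liver exceeded kidney and lung by 2.73 ± 0.30 (log2, SE, limma adjusted p = 7.96e-08), and B cells lay 3.06 ± 0.28 under the solid organs (adjusted p = 1.29e-09). Kidney and lung were not told apart (0.32 ± 0.34, adjusted p = 0.53). No other protein-coding gene starts in the window.

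The starts of Nr5a2 differed from one another. Nr5a2-201, whose upstream bases are printed above, and Nr5a2-203 shared 1 hotspot of 3823, 3028, 696, 796 and 937 bp in the 5 liver sets, each at a -log10 FDR of 100, the ceiling of the score, and had none in the other 15 sets. Nr5a2-206, an internal start 11275 bp downstream, was open in all 15 solid organ sets and in 2 B cell sets. Nr5a2-202 was open in all 5 liver sets, 3 lung sets, 1 B cell set and no kidney set. The start at 136953630 was open in the liver of B6x129 and B6xC3H, in no other adult set and in mESCs, and that at 136940583 in no set.

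The xenobiotic receptors followed. Nr1i2 (ENSMUSG00000022809, chr16:38248323-38294824, minus strand) encodes the pregnane X receptor, a sensor of drugs and other foreign compounds. Coverage in liver was 16511, 16164, 14133, 14851 and 12257 bp, and in kidney 5227, 5391, 5199, 5409 and 4559 bp. In lung it was 3175, 2261, 3637, 2187 and 1929 bp, and in B cells 2128, 643, 2769, 2130 and 2033 bp. Liver was 1.95 ± 0.19 above kidney and lung (log2, SE, limma adjusted p = 1.68e-08), and kidney 0.95 ± 0.22 above lung (adjusted p = 0.00246), with no overlap between those groups. The single start narrowed in the same order, with hotspots of 2110 to 3211 bp in liver, 447 to 1569 bp in kidney and 71 to 477 bp in lung, and none in B cells.

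Nr1i3 (ENSMUSG00000005677, chr1:171213970-171220701, plus strand) encodes the constitutive androstane receptor, which induces drug-metabolising enzymes. Hotspots covered 21445, 23275, 15874, 17152 and 14245 bp in liver. This was 39.4% ± 8.17 of the window (SD, n = 5), the highest share of any member and tissue. The gene body held 4286, 6328, 2204, 3133 and 2436 bp of that coverage, and the flanks held the rest. Kidney coverage was 3397, 3166, 3662, 4644 and 2776 bp, lung coverage 4687, 3400, 6526, 4535 and 4112 bp, and B cell coverage 4575, 1540, 5557, 4605 and 2688 bp. These 3 ranges overlapped, and liver stood above all of them. Liver was 2.13 ± 0.19 above kidney and lung (log2, SE, limma adjusted p = 3.59e-09), whereas kidney and lung differed by -0.37 ± 0.22 (adjusted p = 0.233). The window is shared with the starts of other protein-coding genes, among them Apoa2, Fcer1g, Pcp4l1 and Tomm40l. Without hotspots at those starts, the contrast of liver with kidney and lung was 2.92 and that of kidney with lung turned to 0.56 (adjusted p = 0.0999).

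The Nr1i3 start region itself was open mainly in liver. From Nr1i3-201 to Nr1i3-203, 6 starts that lie 51 bp apart from the first to the last were under 1 liver hotspot, which was 3481 bp wide for B6x129, 4681 for B6xC3H, 1556 for B6xCAST, 2519 for B6xPWK and 708 for B6xSPRET. In kidney a hotspot of 211 bp was called in B6xCAST, 69 bp in B6xPWK and 288 bp in B6xSPRET, with -log10 FDR values of 4.16, 1.65 and 6.43, and none in B6x129 or B6xC3H. The pattern was thus open in all 5 liver sets and in the kidney of those 3 hybrids alone. It was taken from these 6 starts, which lie under 1 hotspot, so its rarity is no test. It was found at 10 of the 93196 starts of all protein-coding genes (0.0107%), 6 of them these starts. The kidney pattern alone was found at 0.107% of all starts. The kidney hotspots were narrow and 1 lay close to the threshold of 5% FDR (a -log10 value of 1.3), so presence and absence here differ by little signal.

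The common partner and the steroid receptor completed the set. Rxra (ENSMUSG00000015846, chr2:27676440-27762957, plus strand) encodes retinoid X receptor alpha, with which most of the receptors above pair. Liver coverage was 55769, 45145, 41674, 29071 and 21772 bp, with the largest mean of the 9 loci in bp, against 14491, 16679, 17336, 17177 and 13317 bp in kidney. Lung ranged widely, at 17157, 7904, 20494, 11848 and 10651 bp, and B cells held 2843, 1888, 5018, 4400 and 2286 bp. Rxra was the only member whose 5 B cell sets all lay below all 15 solid organ sets. The same held for 10.6% of all genes, a share near that of the members (1 of 9). The B cell contrast was -2.59 ± 0.19 (log2, SE, limma adjusted p = 1.68e-11) and that of liver with kidney and lung 1.36 ± 0.20 (adjusted p = 5.09e-06). Kidney and lung differed by 0.28 ± 0.23 (adjusted p = 0.392). The start Rxra-201 was open in all 20 sets, in hotspots of 1445 to 17542 bp in liver and 243 to 792 bp in B cells. Rxra-203, an internal start, had small hotspots within 100 bp in the 5 liver sets alone, of 148 to 322 bp and with -log10 FDR values of 2.24 to 9.02. The merged site beside it was found in 5 liver, 5 kidney and 4 lung sets.

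Esr1 (ENSMUSG00000019768, chr10:4611593-5005614, plus strand) encodes oestrogen receptor alpha, the steroid receptor of the group and by far its longest gene. Coverage was 29641, 27701, 26307, 27090 and 22051 bp in liver and 11126, 11190, 12360, 14091 and 7805 bp in kidney. It was 6949, 2954, 8888, 4839 and 4241 bp in lung and 9142, 4446, 16420, 8547 and 4856 bp in B cells, where the B6xCAST set exceeded every kidney set. Liver was 1.77 ± 0.19 above kidney and lung (log2, SE, limma adjusted p = 5.14e-08), and kidney 1.07 ± 0.22 above lung (adjusted p = 0.00065). A cluster of 4 starts near the 5′ end, Esr1-201 among them, was open in all 20 sets, under hotspots that spanned 885 to 2651 bp in liver and 319 to 2112 bp in B cells, but 163 to 1738 bp for kidney and 84 to 325 bp for lung. The start of Esr1-202 and Esr1-203, 98.6 kb from the 5′ end, was open in all liver and kidney sets, in 4 lung sets and in no B cell set.

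**Figure D3:**
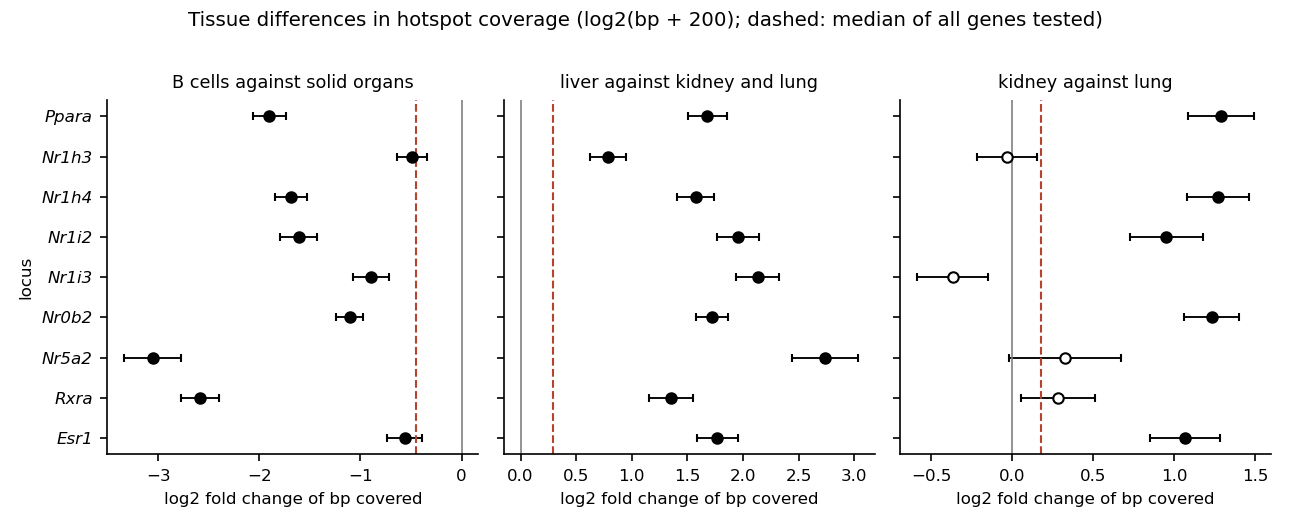
log2 fold changes in bp covered, with SE bars, for the 9 loci in 3 contrasts: B cells against the solid organs, liver against kidney and lung, and kidney against lung. Filled points passed a limma adjusted p of 0.05, and the dashed line is the median of all 21194 genes: the 9 liver points are all above it, from 0.79 for Nr1h3 to 2.73 for Nr5a2.

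Across the 9 loci, the liver contrast was the most general. Coverage was called higher in liver than in kidney and lung at 9 of 9 members, with limma, where 40% of all genes tested were called higher and 9.23% lower (49.2% in either direction). The member median was 1.72 on the log2 scale and the median of all genes 0.29. Every liver set lay above every kidney and lung set at 8 of 9 members, against 16.6% of all genes, and above every other set at the same 8, against 14.6%. Scaling coverage to the total of each set changed the values of all genes. The all-gene median went to -0.05, and the split of calls from 8471 higher and 1956 lower to 5340 higher and 6340 lower. The part of set size in the liver contrast was not tested. At the members the scaled liver contrasts ran from 0.39 at Nr1h3 to 2.33 at Nr5a2, and 9 of 9 stayed called higher.

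Kidney exceeded lung at 5 of 9 members, Ppara, Nr1h4, Nr1i2, Nr0b2 and Esr1, where 20.9% of all genes were called higher in kidney and 5.87% lower (26.8% in either direction). By limma 0 of 9 members were lower in kidney, at an adjusted or an unadjusted p of 0.05. Every kidney set lay above every lung set at Ppara, Nr1h4, Nr1i2 and Nr0b2 (4 of 9, against 12.1% of all genes). Scaling took the split over all genes from 4431 higher and 1244 lower to 4125 higher and 4455 lower. The 5 members stayed called higher, and Nr1i3 at -0.60 (adjusted p = 0.000959) and Nr1h3 at -0.27 (adjusted p = 0.0462) were then called lower in kidney. With 5 pairs of sets, an exact permutation test within hybrids cannot give a p below 0.0625, so it called no gene here.

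In B cells 9 of 9 members were called lower than in the solid organs, in a comparison where 53.4% of all genes were called lower and 7.14% higher (60.5% in either direction). The members fell into groups. Nr5a2 (-3.06), Rxra (-2.59), Ppara (-1.90), Nr1h4 (-1.68) and Nr1i2 (-1.61) lay well under the all-gene median of -0.45. Nr0b2 (-1.11) and Nr1i3 (-0.90) lay between, and Esr1 (-0.56) and Nr1h3 (-0.49) differed from the median by only -0.11 and -0.04. After scaling to the total of each set, the all-gene median became 0.16 and the split went from 1513 higher and 11316 lower to 9336 higher and 5839 lower. The first 5 and Nr0b2 stayed lower under scaling, Nr1i3 lost its call (-0.17, adjusted p = 0.155), Nr1h3 turned to 0.25 (adjusted p = 0.0132) and Esr1 to 0.19 (adjusted p = 0.0539). The calls of Nr1h3, Nr1i3 and Esr1 as lower in B cells were thus not kept under scaling. The part of set size in the B cell contrast was not tested. Without the B6xSPRET sets, Esr1 also lost its call (-0.49, adjusted p = 0.0602). Under exact permutation within hybrids 5 members stayed called, and Nr0b2, Nr1i3, Nr1h3 and Esr1 lost their calls (adjusted p from 0.0996 to 0.406).

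Merging overlapping hotspots of the 20 sets gave 561 sites in the 9 windows, of 745754 genome-wide. Sites of all 5 liver sets and no other set numbered 67 (11.9%; 3.03% of all sites). By contrast 3 sites were particular to all 5 kidney sets (0.535%; 1.99%), 1 to all 5 lung sets (0.178%; 1.47%) and 0 to the B cell sets (0.334% of all sites). Sites of all 10 liver and kidney sets and no other numbered 26 (4.63%; 1.12%), and sites of all 20 sets 23 (4.1%; 3.77%). Sites of all 15 solid organ sets and no B cell set numbered 6 (1.07%; 1.14%). A larger number, 190 (33.9%; 42.2%), was found in a single set.

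**Figure D4:**
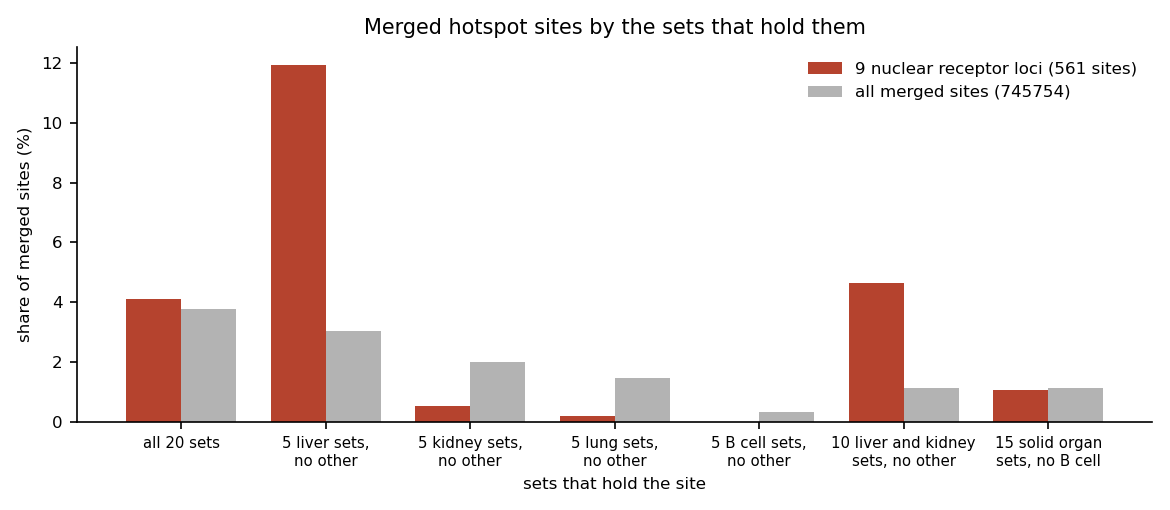
Share of merged hotspot sites, in percent, with each tissue pattern among the 561 sites of the 9 windows and among all 745754 sites. Sites of all 5 liver sets alone made up 11.9% of the former and 3.03% of the latter.

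The recurrent liver-only sites were unevenly placed. Esr1 held 19 of its 137 sites in this class, Nr5a2 18 of 97, Rxra 9 of 71, Nr1h4 6 of 75 and Ppara 5 of 73. Nr1i2 held 4 of 38, Nr0b2 3 of 25, Nr1h3 2 of 23 and Nr1i3 1 of 22. The order by share of sites differed from that by number. Shares ran from 4.55% at Nr1i3 to 18.6% at Nr5a2, with 6.85% at Ppara, 8% at Nr1h4 and 12% at Nr0b2. At Nr5a2 57 of 97 sites were seen in liver only, in any number of liver sets (58.8%), compared with 44.0% over the 9 windows and 21.5% of all sites. Of the 67 sites, 50 were in introns, 7 touched exons, 8 lay in the flanks, 1 at a start of the member and 1 at the start of another gene. Among all 561 sites of the windows, 338 were in introns, 33 touched exons and 157 lay in the flanks. The others were 20 at a start of the member and 13 at the start of another gene. Sites shared by liver and kidney were found mostly at Ppara (10 of the 26) and Nr1h4 (6), and none at Esr1 or Nr1h3.

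**Figure D5:**
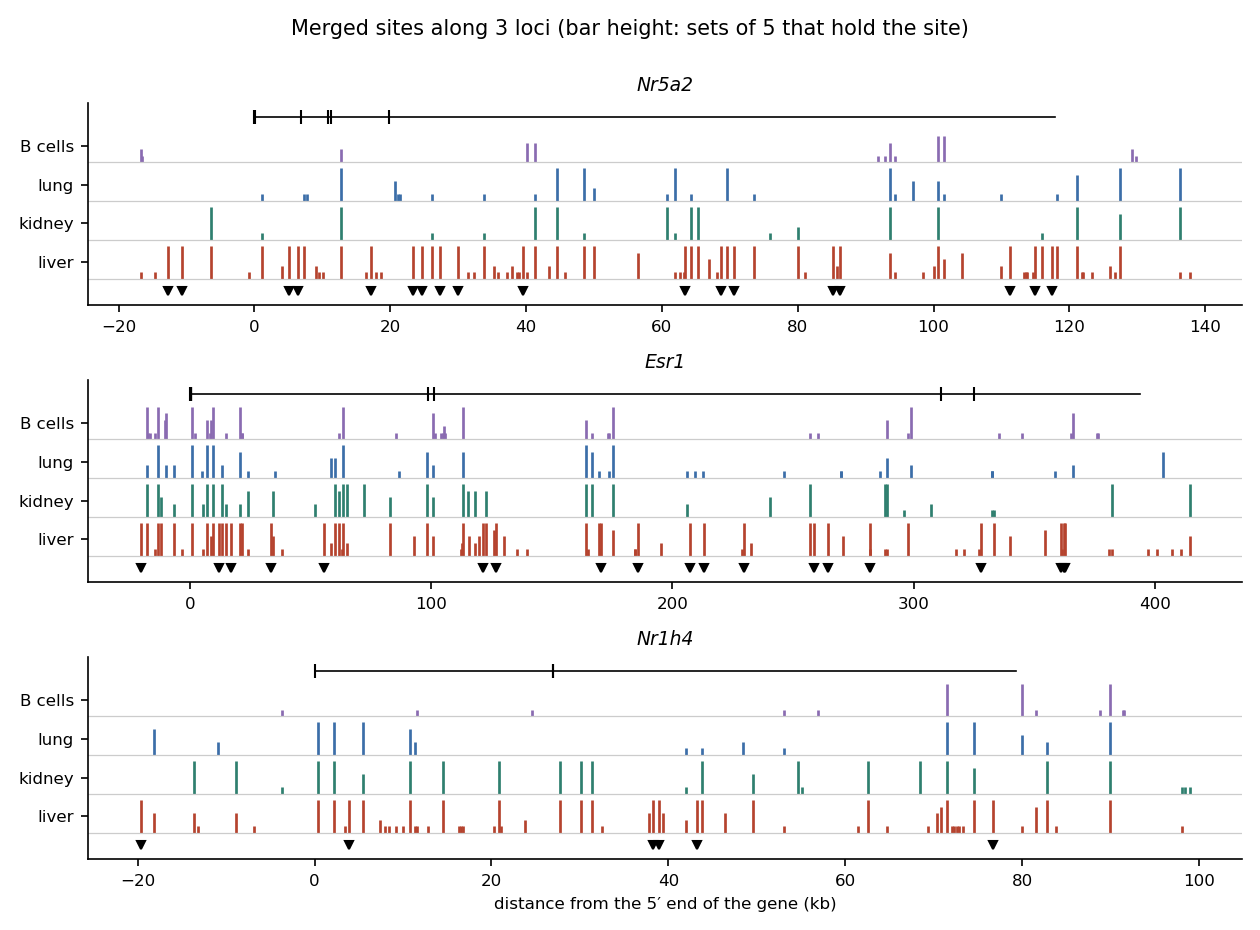
Merged hotspot sites at Nr5a2, Esr1 and Nr1h4 against the distance in kb from the 5′ end of the gene, by tissue. Triangles mark sites of all 5 liver sets and no other set (18, 19 and 6) and ticks the annotated starts: the liver-only sites are spread through the gene bodies.

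Motifs were searched in 300 bases of each liver-only site, centred on the stretch shared by the most liver sets. Of the 67 liver-only sites, 18 (26.9%) held AGGTCA there, where 35.3% of all 22564 such sites did. A forkhead type element was found in 7 (10.4%; 8.93%), a TATA box in 13 (19.4%; 16.8%), a GC box in 4 (5.97%; 3.08%) and TCAAGGTCA, the kind of element that Nr5a2 protein is known to bind, in 1 (1.49%; 2.65%). None of the other 6 motifs was found, each being present in under 3% of all such sites. The member sites thus held none of these letters at a share far from that of liver-only sites elsewhere. The 3 windows below are shown as examples: in Rxra the only site with both AGGTCA and a forkhead type element, in Nr5a2 an intronic site with a forkhead type element, and upstream of Nr1h3 the site with TCAAGGTCA. They are from the mm10 plus strand, with motif matches on either strand in capitals and positions counted from the first base.
Rxra intron, chr2:27695976-27696275: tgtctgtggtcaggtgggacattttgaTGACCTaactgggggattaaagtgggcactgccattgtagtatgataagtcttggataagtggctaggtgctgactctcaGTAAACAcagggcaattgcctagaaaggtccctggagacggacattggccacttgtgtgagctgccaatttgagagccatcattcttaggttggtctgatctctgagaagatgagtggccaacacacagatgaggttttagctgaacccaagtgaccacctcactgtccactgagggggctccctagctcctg
Nr5a2 intron, chr1:136932846-136933145: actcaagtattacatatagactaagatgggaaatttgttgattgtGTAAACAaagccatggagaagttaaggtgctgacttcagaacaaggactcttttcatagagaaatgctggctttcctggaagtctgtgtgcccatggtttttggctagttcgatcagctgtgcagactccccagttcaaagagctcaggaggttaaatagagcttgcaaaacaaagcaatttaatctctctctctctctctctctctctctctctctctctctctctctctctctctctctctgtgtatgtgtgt
Nr1h3 upstream flank, within Ddb2, chr2:91216088-91216387: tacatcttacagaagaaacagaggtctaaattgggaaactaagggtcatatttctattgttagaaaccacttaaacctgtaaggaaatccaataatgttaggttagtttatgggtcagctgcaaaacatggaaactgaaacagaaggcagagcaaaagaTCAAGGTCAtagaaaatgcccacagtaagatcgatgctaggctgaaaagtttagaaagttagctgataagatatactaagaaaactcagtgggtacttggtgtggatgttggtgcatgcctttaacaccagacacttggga

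In the Rxra window AGGTCA lay at position 28 and the forkhead type element at 108, both on the minus strand. The Nr5a2 window held its forkhead type element at 46 on the minus strand, and the Nr1h3 window TCAAGGTCA at 160. The Rxra site lies 19.7 kb and the Nr5a2 site 27.4 kb downstream of the 5′ end of the gene. The Nr1h3 site lies at -13.4 kb from the 5′ end of that gene, upstream of it and in the body of Ddb2, and the data do not say to which gene it belongs.

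Stem cells offered a comparison outside the adult organs. In mESCs 18 of the 47 starts were open (38.3%; 49.4% of all starts), and the 9 windows held from 3 hotspots at Nr0b2 to 40 at Esr1. An mESC hotspot overlapped 56 of the 561 sites (9.98%; 9.31%). Only 1 of the 67 liver-only sites overlapped an mESC hotspot (1.49%; 2.34% of all such sites). CTCF hotspots of mESCs overlapped 40 of the 561 sites (7.13%; 7.89%). They overlapped 14 of the 23 sites open in all 20 adult sets (60.9%; 67.2%) and 2 of the 67 liver-only sites (2.99%; 1.95%). At starts CTCF was present at 9 of 47 (19.1%; 11.3%). In mESCs 1 hotspot set per assay was analysed, with no replicate set, although the labels list 2 DNase-seq samples.

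Hybrids were compared over the same loci. By the limma F test over the 5 hybrids, 0 of 9 members passed an adjusted p of 0.05 (0.0612 to 0.339), where 1.87% of all genes did. At an unadjusted p of 0.05 there were 5 of 9, Ppara, Nr1h4, Nr5a2, Rxra and Esr1, against 39.2% of all genes. The largest gap between the highest and lowest hybrid was at Nr5a2 (1.51 on the log2 scale, B6x129 against B6xC3H) and the smallest at Nr0b2 (0.43). B6xC3H or B6xSPRET was the lowest hybrid at 9 of 9 members. Genome-wide, B6xSPRET also had the least coverage in liver (78.4 Mb) and kidney (63.6 Mb). B6xC3H had the least in lung (43.8 Mb) and B cells (29.0 Mb). The share of all genes lowest in these hybrids was not computed. Of the 458 member sites found in any liver set, 208 were found in all 5 (45.4%; 32.5% of all sites of any liver set). Another 21 were missing in B6xSPRET alone (4.59%; 3.57%), 5 in B6xC3H alone (1.09%; 2.05%), and 87 were found in B6x129 alone (19.0%; 17.1%), the set with the most hotspots. The size of a set and its hybrid cannot be told apart.

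Other genes of the same pathways, taken from lists of names, were compared with limma in the same way, where 40% of all genes were called higher in liver than in kidney and lung and 9.23% lower, a split that scaling turned to 5340 genes higher and 6340 lower. Of 8 xenobiotic targets, 7 were called higher in liver than in kidney and lung, led by Cyp3a11 (5.60 ± 0.36, SE) and Cyp2c29 (4.90 ± 0.29), which encode drug-metabolising cytochromes P450. Of 18 lipid and cholesterol genes, 16 were higher and 1 lower, with Cyp4a14 (2.02 ± 0.22) among the former. Of 12 bile acid genes, 8 were higher and none lower, with Cyp7a1, the rate-limiting enzyme of bile acid synthesis, at 4.02 ± 0.25 and Slc10a1, which takes up bile salts, at 2.82 ± 0.21. Other nuclear receptors were more mixed, with 17 of 30 higher and 3 lower. Hnf4a, a regulator of hepatocyte genes, was at 2.25 ± 0.19 and Vdr, the vitamin D receptor, at -1.47 ± 0.17. Among 12 coregulators 10 were higher and 2 not called. List medians were 2.32, 1.29, 1.76, 0.56 and 0.61 in this order, beside 0.29 for all genes.

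In B cells 8 of 8 xenobiotic, 15 of 18 lipid, 9 of 12 bile acid, 24 of 30 nuclear receptor and 8 of 12 coregulator genes were called lower than in the solid organs, beside 53.4% of all genes, a share that scaling also changed. The coregulator median of -0.47 lay near the all-gene median of -0.45. The lower genes were led over these lists by Nr2f2 (-5.16 ± 0.30), an orphan receptor, and Esrrg (-4.56 ± 0.20). Only 1 nuclear receptor and 1 lipid gene were called higher. Between kidney and lung, 3, 6, 2, 10 and 2 genes of the lists in that order were higher in kidney, and 1 xenobiotic and 1 nuclear receptor gene lower, beside 20.9% and 5.87% of all genes. Cyp4a14, which encodes a fatty acid hydroxylase, was at 2.27 ± 0.25 and Ppargc1a, a coactivator of Ppara, at 1.54 ± 0.18.

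The genes with the profiles most like those of the members across the 20 sets were found by Pearson correlation of log2 coverage, as a description, since the sets share tissue and size. Ppara and Nr1h4 were closest to each other (r = 0.991). Nr0b2 was close to Ces2a (0.984). Among the others, Nr1i2 was closest to Abat (0.990), Nr5a2 to Pcp4l1 (0.982) and Rxra to Col22a1 (0.990). Nr1i3 was closest to Cpsf1 (0.978), Esr1 to Rnf130 (0.974) and Nr1h3 to Ppp1r13b (0.963). Pcp4l1 starts in the window of Nr1i3, and the windows of these genes hold hotspots in common. The part of those hotspots in the likeness of Pcp4l1 to Nr5a2 was not tested.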

How the data were processed

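DNase-seq libraries of 4 tissues and 5 hybrids were mapped to mm10 with BWA, pooled per hybrid and tissue, and hotspots called with hotspot2 at 5% FDR by the authors. The deposited hotspot sets give each position and its −log10 FDR, with a ceiling of 100. The deposited RNA-seq tables give the expected count per gene from RSEM, and these counts were not tested. The members, lists and motifs were chosen with earlier results of these data known.

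Windows and starts were taken from GENCODE vM21, and all 9 members were named whatever their values, with at most the 2 called genes of largest change per list and the 2 genes of most similar profile, some of which are not reported here. Hybrids served as repeats of a tissue, so p-values measure the spread between hybrids, not between mice. Coverage was fitted with limma-trend and hybrid as a block. Of the 30 pairs of sets of 1 hybrid, 19 had deviations from the tissue means that correlated above 0.1 (r from -0.04 to 0.26), and 18 of 20 sets correlated best with their own hybrid. Sets were paired by the cross in their labels, and the part of set size in these correlations was not tested. The fit was tested on simulated data. The alternatives were other pseudocounts (50 and 1000 bp), filters, thresholds, windows, scalings, a permutation test, no block and each hybrid left out. All 13 promoters of the members in the RefSeq table were found unchanged in the genome. Values were computed with R 4.3.3, limma 3.58.1, Python 3.11.15, pandas 2.3.3, NumPy 2.4.6, SciPy 1.17.1 and matplotlib 3.10.9. Allelic reads were not analysed here.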

Additional observations from a re-analysis of the deposited data

Results flagged for a closer look

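Among the 36 groups of 5 sets (9 loci in 4 tissues), 3 held a set that stood apart from the other 4 by Dixon's criterion (critical ratio 0.71), where chance gives about 1 in 20. At Ppara the B6xSPRET kidney set covered 11433 bp, against 14372 to 15073 bp in the other kidney sets (ratio 0.807). At Nr1i2 the same set covered 4559 bp, against 5199 to 5409 bp (ratio 0.753). That set held the fewest hotspots of the kidney sets genome-wide (186061), and the part of set size in these values was not tested. At Nr5a2 the B6x129 liver set covered 43667 bp, against 25875 to 31006 bp in the other liver sets (ratio 0.712), and it held the most hotspots of all sets (295565). Its part in the value was likewise not tested. Without B6x129, the liver contrast of Nr5a2 stayed within the range of 2.64 to 2.91 over the hybrids left out in turn.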

How the results depend on the processing

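The liver contrast kept its direction and call at 9 of 9 members under each alternative run. In the B cell contrast, the calls of Nr1h3, Nr1i3, Nr0b2 and Esr1 were lost under exact permutation within hybrids (5 members left, smallest p 0.000977, adjusted p 0.0996 to 0.406). With the 75000 highest-scoring hotspots, Esr1 turned to 0.49, and Nr1h3 (-0.10) and Nr1i3 (-0.43) lost their calls. With scaling, Nr1h3 turned to 0.25, Esr1 to 0.19, and Nr1i3 lost its call (-0.17). Leaving out 1 hybrid left 8 to 9 members called. For kidney against lung, scaling called 8580 genes, exact permutation called 0 genes and 0 members (limma called 5675 and 5), and leaving out 1 hybrid 3332 to 6351, with B6xPWK giving the lowest. Values that changed sign without being called were Nr1h3 with the gene body alone (0.20), with 5 kb (0.0897) and when 1 hybrid was left out (-0.19 to 0.10, above 0 without B6xCAST and without B6xSPRET), Nr1i3 with the gene body alone (0.0026) and without other starts (0.56), and Nr5a2 by number of hotspots (-0.0353). The cause was not tested.

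Hybrid calls were unstable. The 396 genes called became 63 with a pseudocount of 50 bp, 246 with no filter, 125 at FDR 1%, 10 with the 75000 highest-scoring hotspots, 17 with the gene body, 52 with 5 kb, 3984 with 50 kb, 766 without other starts, 2876 by number of hotspots, 50 with scaling, and 33 to 2994 with 1 hybrid left out. Members called were 4 with 50 kb, 1 by number (Esr1) and 0 to 4 with 1 hybrid left out, where Ppara, Nr5a2, Rxra and Esr1 passed without B6xC3H.

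Without the hybrid as a block, 11556, 8833 and 4074 genes were called in the B cell, liver and kidney contrasts, in place of 12829, 10427 and 5675, and the pairing changed no call of a member.

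Starts open in all 5 B cell sets and in all 20 sets each became 40.4% within 500 bp and 42.6% within 1000 bp, and liver-only starts 0% under both. With the 75000 highest-scoring hotspots these were 21.3%, kidney starts 40.4% and lung starts 25.5%. Liver-only sites were then 18.1%, kidney-only 2.21%, B cell-only 1.77% and sites of a single set 18.6%. The latter were 27.1% when merged within 100 bp, which left 0% for lung, and 27.5% at FDR 1%. Leaving out 1 hybrid gave 12.7% to 15.1% liver-only sites and 27.3% to 34.7% in a single set. Pooled sets limit each value to 1 per hybrid and tissue, and the read depth of the sets was not used here.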

Other observations

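RNA-seq tables of 17 samples, 5 from B cells and 4 from each organ, held 283725 to 809337 expected counts each, with a median of 384085. These totals are those of the tables and not the sequencing depth. Most members were at or near 0. Ppara, Nr1h3, Nr1h4, Nr1i2, Nr0b2, Rxra and Esr1 held 0 to 7 expected counts in every sample, and Nr5a2 0 to 18, the highest in lung (median 9.5) and 0 in all 5 B cell samples. Nr1i3 alone had more. Kidney samples held 225 to 292 (median 281), lung samples 102 to 208 (median 162), B cell samples 108 to 313 (median 133) and liver samples only 44 to 90 (median 60). Its order of tissues was thus unlike that of its hotspots, with liver lowest. Nr1i3 shares 4691 of its 6732 bp with Tomm40l on the opposite strand, and which gene these counts came from was not tested. The counts were therefore not read as levels of the receptors.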
